A study of Mus musculus with 12 samples.

Results

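A set of 6 genes known for their part in axon injury and axon regrowth was followed through the retinas of this study: Sox11, Gap43, Sprr1a, Ecel1, Gal and Nrn1. The rule took them by name and used no measured level, although earlier results of these data were known when it was written, and they are 6 of the 55487 genes in the deposited table. RNA-seq was performed on 12 libraries of mouse retina, 2 in each of 6 groups. WT retinas came from C57BL/6J mice. The shPax6 retinas came from mice infected with 2 μL of AAV2.7m8 carrying pU6-shPax6-GFP, a vector that makes an shRNA against Pax6 under the U6 promoter and also makes GFP. JNK3 KO retinas came from Jnk3-/- mice, which lack the kinase JNK3 throughout the body. Injections into the vitreous held 1 μL, which was either PBS or NMDA at 40 mM (40 nmol), in each genotype, so that the PBS groups carry the injection itself. NMDA opens a glutamate receptor of neurons and, in excess, kills retinal ganglion cells (RGCs) and amacrine cells. The study's methods name poly(A) RNA from more than 3 retinas, without saying whether retinas were pooled for each library. The 12 libraries include none from eyes given the shScramble control vector, so infection and knockdown cannot be told apart. Mice that received the vector were 2 months old, and the time between injection and collection is not given for these libraries in the sources used here.

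When an axon is damaged, a signal travels back to the cell body, and the neuron switches its transcription from synaptic function toward survival, death or regrowth. JNK kinases and the AP-1 and ATF3 transcription factors carry much of that signal in RGCs. Among the 6 genes, Sox11 is a transcription factor of immature and regrowing neurons, and Gap43 is a membrane protein of the growth cone that is made in large amounts while axons extend. Nrn1 (neuritin, also called CPG15) is a small protein anchored to the outer membrane that promotes neurite and synapse growth, and Gal is the precursor of the neuropeptide galanin. Sprr1a is a small proline-rich protein first known from keratinocytes and strongly raised in injured sensory neurons, and Ecel1 is a membrane protease of the neprilysin family, also called DINE for its induction by neuronal damage.

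Levels are given as FPKM, fragment counts scaled by the authors to transcript length and library size. A gene was tested where the mean of at least 1 group was above 1 FPKM, which left 16471 genes. Differences are log2 differences on the log2(FPKM + 0.1) scale, which understates changes of genes near 0.1 FPKM. A gene was called changed where the Benjamini-Hochberg adjusted p of limma's test over all tested genes was under 0.05 and the absolute log2 difference was above 1. Of the 6 genes, 5 passed the filter on low values and Sox11 did not. The deposited values are not counts, which leaves the depth of each value unknown, and precision was read from the spread between libraries. The study calls the 2 libraries of a group biological replicates without describing the retinas behind each. The p-values rest on limma's estimate of spread, which joins the libraries of all 6 groups and is drawn toward that of genes at similar levels. The libraries of a comparison thus do not set it alone.

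The 2 WT NMDA libraries stood apart from the other 10. Their FPKM summed to 805627 and 820180, against 541210 to 576922 in the others, and their difference from WT PBS ran with gene length. The median log2 difference of WT NMDA against WT PBS was 0.84 for genes with a spliced length of 1 to 2 kb and -0.61 for genes over 4 kb. Rescaling each library to TPM moved the median of all tested genes in this comparison from -0.09 to -0.66. Where another scaling changed the call or the direction of a WT gene value given below, a value under that scaling stands beside it. As a check of the labels, the mean level of Pax6 under PBS was 175 FPKM in WT and 93.7 FPKM in shPax6 retinas, and after NMDA it was 54.6 and 63.1 FPKM. That of Mapk10, the gene of JNK3, was 46.8 FPKM in WT and 9.11 FPKM in JNK3 KO retinas under PBS, a level that is lower and not 0, and 7.49 and 10.2 FPKM after NMDA. The NMDA libraries of either gene thus did not separate the genotypes in the direction of the labels.

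**Figure D1:**
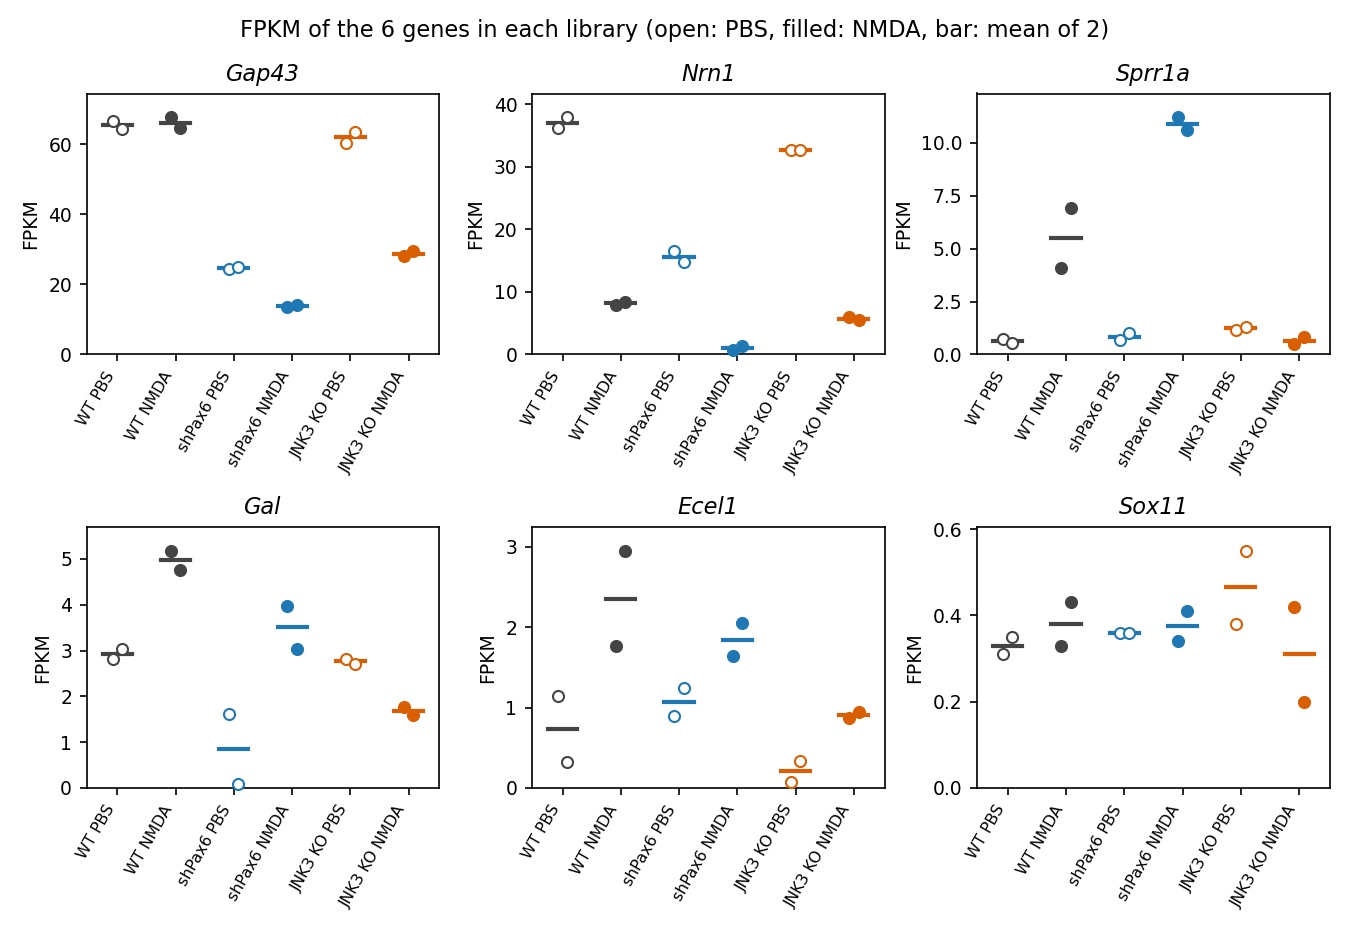
FPKM of Gap43, Nrn1, Sprr1a, Gal, Ecel1 and Sox11 (y axes from 0, a scale for each gene) in the 6 groups (x axis), with open points for PBS libraries, filled points for NMDA libraries and a bar at the mean of 2. Gap43 stayed between 64.42 and 67.66 FPKM in all 4 WT libraries, Nrn1 was lower after NMDA in every genotype, and Sprr1a was above 4 FPKM in the WT and shPax6 NMDA libraries alone.

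Gap43, on the minus strand of chromosome 16 (GRCm38, chr16:42248442-42340651), had the highest level of the 6 genes. In WT retinas its FPKM were 66.58 and 64.42 after PBS and 67.66 and 64.46 after NMDA. In shPax6 retinas it was at 24.44 and 24.9 FPKM after PBS and at 13.61 and 14.03 FPKM after NMDA. In JNK3 KO retinas it was at 60.38 and 63.45 FPKM after PBS and at 27.97 and 29.46 FPKM after NMDA. Thus the 4 WT libraries overlapped, the JNK3 KO PBS libraries lay just below them, and the shPax6 libraries lay below all others whether or not NMDA had been given. By group mean the order was WT NMDA with 66.1 ± 2.26 FPKM (SD, n = 2), WT PBS with 65.5 ± 1.53 FPKM, JNK3 KO PBS with 61.9 ± 2.17 FPKM, JNK3 KO NMDA with 28.7 ± 1.05 FPKM, shPax6 PBS with 24.7 ± 0.33 FPKM and shPax6 NMDA with 13.8 ± 0.30 FPKM. Only the first pair of neighbours in this order overlapped in range. Between NMDA and PBS, 81.2%, 57% and 61.5% of all tested genes did not overlap in WT, shPax6 and JNK3 KO retinas. Under PBS this held for 57.5% between shPax6 and WT and for 53.7% between JNK3 KO and WT.

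Gap43 fell after NMDA in JNK3 KO retinas, by 1.11 on the log2 scale (SE 0.06, adjusted p = 2.68e-05, 2.16-fold lower). The log2 difference after NMDA was -0.83 in shPax6 retinas (SE 0.06, adjusted p = 2.36e-05), whose size did not reach the limit for a call, and 0.01 in WT retinas (95% interval -0.13 to 0.16, adjusted p = 0.899). Under PBS, Gap43 was 2.66-fold lower in shPax6 than in WT retinas, a log2 difference of -1.40 (SE 0.06, adjusted p = 4.94e-06), whereas JNK3 KO PBS and WT PBS retinas differed by -0.08 (95% interval -0.23 to 0.07). The responses of WT and JNK3 KO retinas differed by 1.12 (SE 0.09, adjusted p = 1.19e-05) and those of WT and shPax6 retinas by 0.84 (adjusted p = 9.40e-05, under the size limit). Over 12 alternative settings the WT minus shPax6 difference ranged from 0.26 to 0.88, with limma's adjusted p up to 0.0696. The WT value of Gap43 moved with the scaling. Its spliced length is 1523 bases, and it belongs to the length class that was highest in WT NMDA libraries. On TPM the WT log2 difference was -0.56, after quantile normalization -0.40 and after removal of the length trend -0.79. The difference between the WT and JNK3 KO responses was then 0.53, 0.72 and 0.18, with no call in any of these 3 settings. In JNK3 KO retinas the same settings gave -1.09, -1.11 and -0.97, so that the call was lost after length correction. In shPax6 retinas Gap43 was called after quantile normalization (-1.01) and length correction (-1.05).

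Nrn1, on the minus strand of chromosome 13 (chr13:36725361-36735131), was lower after NMDA in every genotype. In WT retinas it was at 36.15 and 37.95 FPKM after PBS and at 7.96 and 8.39 FPKM after NMDA. In shPax6 retinas it was at 16.5 and 14.83 FPKM after PBS and at 0.75 and 1.33 FPKM after NMDA. In JNK3 KO retinas it was at 32.73 and 32.69 FPKM after PBS and at 6.02 and 5.47 FPKM after NMDA. No pair of groups overlapped, which held for 81.2%, 57% and 61.5% of all tested genes between NMDA and PBS in WT, shPax6 and JNK3 KO retinas, and under PBS for 57.5% between shPax6 and WT and 53.7% between JNK3 KO and WT. The order was WT PBS, JNK3 KO PBS, shPax6 PBS, WT NMDA, JNK3 KO NMDA and shPax6 NMDA.

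Nrn1 fell by 2.17 on the log2 scale in WT (SE 0.21, adjusted p = 1.78e-05, 4.53-fold lower), by 3.84 in shPax6 (SE 0.21, adjusted p = 3.19e-06, 15.1-fold lower) and by 2.49 in JNK3 KO retinas (SE 0.21, adjusted p = 1.88e-04, 5.69-fold lower). These 3 calls were kept in all 12 alternative settings and without any 1 library, with WT values of -2.74 to -2.01. Under PBS, Nrn1 was 2.37-fold lower in shPax6 than in WT retinas, with a log2 difference of -1.24 (SE 0.21, adjusted p = 0.00397). The shPax6 response was larger than the WT response by 1.67 (SE 0.29, adjusted p = 0.00141) and larger than the JNK3 KO response by 1.35, that is a difference of -1.35 (SE 0.29, adjusted p = 0.0143). With a pseudocount of 1 in place of 0.1 these differences were 0.99 and -0.72, with no call. The call against JNK3 KO was also lost without shPax6 NMDA replicate 1 (-0.97), JNK3 KO PBS replicate 1 (-1.35) or 2 (-1.34), or JNK3 KO NMDA replicate 1 (-1.28). WT and JNK3 KO responses differed by 0.32 (95% interval -0.34 to 0.99, adjusted p = 0.392).

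**Figure D2:**
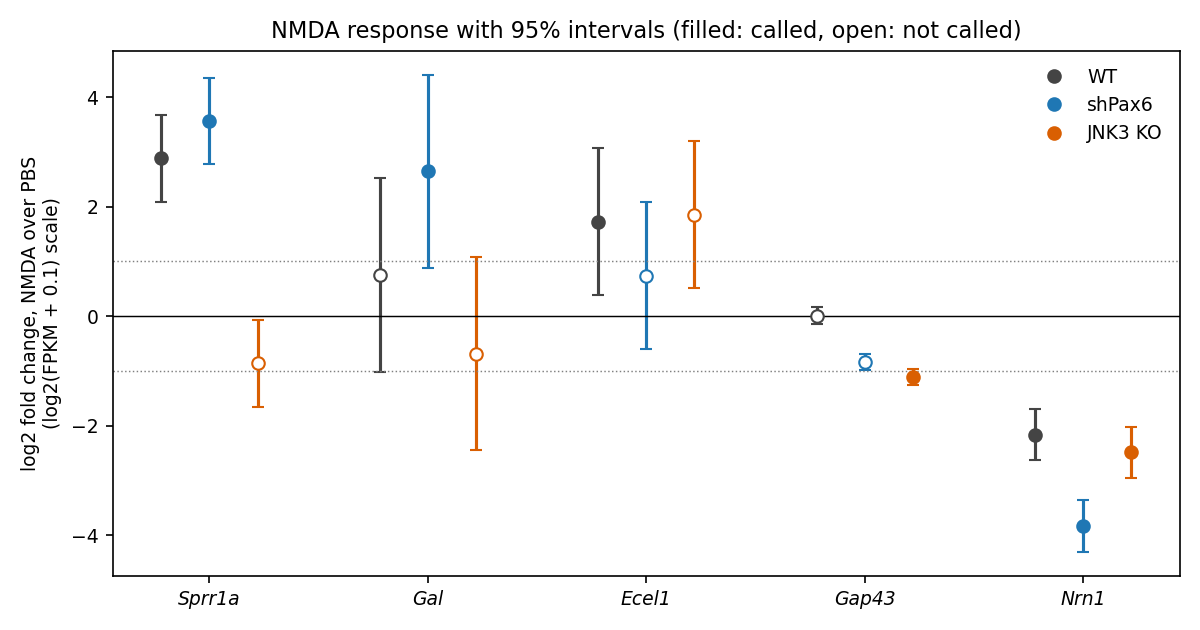
Log2 fold change of NMDA over PBS on the log2(FPKM + 0.1) scale (y axis) for the 5 tested genes (x axis) in WT, shPax6 and JNK3 KO retinas, with 95% intervals from limma, filled points for called changes and dotted lines at 1 and -1. Sprr1a is at 2.88 in WT and 3.56 in shPax6 but at -0.86 in JNK3 KO retinas, and Nrn1 is below -2 in all 3 genotypes.

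Both Gap43 and Nrn1 are made by RGCs, and markers of these cells moved in the same comparisons. In whole retinas, fewer cells of a type and less RNA per cell cannot be told apart. The FPKM of 12 RGC marker genes (Rbpms, Slc17a6, Pou4f1, Pou4f2, Pou4f3, Isl1, Nefl, Nefm, Nefh, Thy1, Sncg and Jam2) summed to 629 to 648 in WT PBS, 346 to 366 in WT NMDA, 225 to 230 in shPax6 PBS, 102 to 112 in shPax6 NMDA, 591 to 636 in JNK3 KO PBS and 195 to 197 in JNK3 KO NMDA libraries. None of the 12 was at 0 in both libraries of a group. Marker sums, counts and medians here and below are on deposited FPKM unless another scaling is named. Total FPKM was 805627 and 820180 in the WT NMDA libraries, against 541210 to 576922 in the others. WT NMDA sums therefore stand higher against the other groups than they would on TPM. Of these 12, 8 fell in WT, 8 in shPax6 and 6 in JNK3 KO retinas after NMDA, with median log2 differences of -1.82, -2.40 and -1.78. Over all tested genes 20.9%, 4.94% and 1.87% were called lower in the same comparisons. Under PBS 6 of the 12 markers were lower in shPax6 than in WT retinas (median -1.55), against 3.9% of all tested genes. Amacrine markers were also lower in shPax6 retinas, with sums of 425 to 434 after PBS and 125 to 133 after NMDA, against 657 to 669 and 266 to 273 in WT. The part of either cell type in the values of Gap43 and Nrn1 was not tested.

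Gap43 amounted to 10.6% and 9.94% of the RGC marker sum in WT PBS and 19.6% and 17.6% in WT NMDA libraries. It amounted to 10.9% and 10.8% in shPax6 PBS and to 9.50% and 10.7% in JNK3 KO PBS libraries, so that the 6 PBS libraries lay between 9.50% and 10.9%. After NMDA the share was 12.2% and 13.7% in shPax6 and 14.3% and 15.0% in JNK3 KO retinas, above every PBS library. Nrn1 moved the other way, from 5.75% and 5.85% to 2.30% and 2.30% in WT, from 7.34% and 6.44% to 0.67% and 1.30% in shPax6, and from 5.15% and 5.53% to 3.08% and 2.78% in JNK3 KO retinas. Both genes are divided by the same sums here, and no test was made of these shares. The shares rest on deposited FPKM, and the length trend of the WT NMDA libraries was not removed from them. Removal of that trend took the WT log2 difference of Gap43 from 0.01 to -0.79. Thy1, a surface protein of RGCs and one of these markers, had log2 differences after NMDA of 0.01 in WT, -1.14 in shPax6 and -2.09 in JNK3 KO retinas, and -0.56 in WT on TPM.

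**Figure D3:**
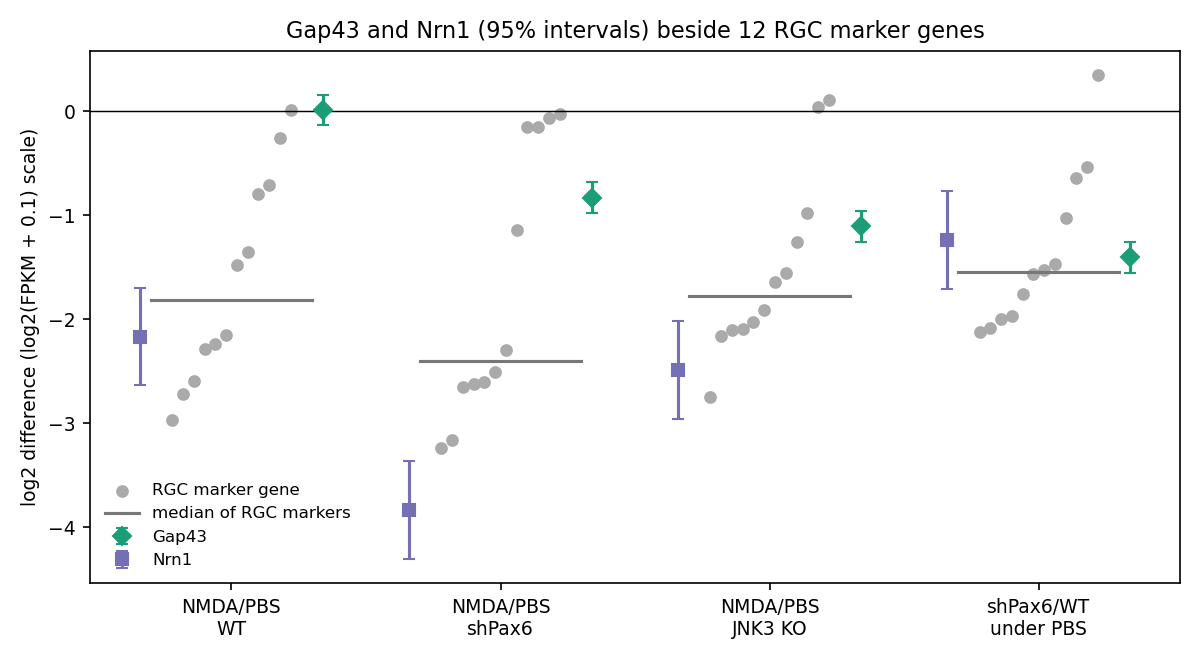
Log2 differences (y axis) of 12 RGC marker genes (grey points, line at their median) in 4 comparisons (x axis), with Gap43 and Nrn1 beside them and their 95% intervals. Nrn1 lies below the marker median after NMDA in each genotype and above it in shPax6 against WT under PBS, and Gap43 lies above the marker median in all 4 comparisons.

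Sprr1a, on the minus strand of chromosome 3 (chr3:92483952-92485895), rose after NMDA in WT and shPax6 retinas and not in JNK3 KO retinas. In WT retinas it was at 0.73 and 0.55 FPKM after PBS and at 4.07 and 6.93 FPKM after NMDA. In shPax6 retinas it was at 0.68 and 1.01 FPKM after PBS and at 11.21 and 10.61 FPKM after NMDA. In JNK3 KO retinas it was at 1.17 and 1.3 FPKM after PBS and at 0.49 and 0.81 FPKM after NMDA. The 2 shPax6 NMDA libraries were the highest, the 2 WT NMDA libraries came next, and the JNK3 KO NMDA libraries overlapped the PBS libraries of WT and shPax6 and lay below those of JNK3 KO. Between NMDA and PBS, 81.2%, 57% and 61.5% of all tested genes did not overlap in WT, shPax6 and JNK3 KO retinas.

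The log2 difference of Sprr1a was 2.88 in WT (SE 0.35, adjusted p = 8.29e-05, 8.59-fold higher), 3.56 in shPax6 (SE 0.35, adjusted p = 9.51e-05, 12.9-fold higher) and -0.86 in JNK3 KO retinas (SE 0.35, adjusted p = 0.167). The WT response exceeded that of JNK3 KO retinas by 3.75 (SE 0.49, adjusted p = 2.07e-04) and the shPax6 response exceeded it by 4.43 (SE 0.49, adjusted p = 5.06e-04). These 4 calls were kept in all 12 alternative settings and without any 1 library, with 2.40 to 4.18 for WT against JNK3 KO and 3.14 to 4.47 for shPax6 against JNK3 KO. WT and shPax6 responses differed by -0.68 (95% interval -1.80 to 0.43, adjusted p = 0.281), an interval that reaches past the size limit only toward a larger response in shPax6. Under PBS, Sprr1a differed from WT by 0.34 (adjusted p = 0.574) in shPax6 and by 0.86 (adjusted p = 0.284) in JNK3 KO retinas.

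Summed markers of immune cells were also higher after NMDA in WT and shPax6 and lower in JNK3 KO retinas. The summed FPKM of 10 microglia and macrophage markers was 147 to 160 in WT PBS, 265 to 268 in WT NMDA, 160 to 170 in shPax6 PBS, 686 to 704 in shPax6 NMDA, 134 to 145 in JNK3 KO PBS and 115 to 120 in JNK3 KO NMDA libraries. None of the 10 was at 0 in both libraries of a group. Of all tested genes, 14.2% were called up and 20.9% down in WT, 8.64% and 4.94% in shPax6, and 0.777% and 1.87% in JNK3 KO. Taken gene by gene, 3 of the 10 rose and 2 fell in WT (median log2 difference 0.06, or -0.51 on TPM with 2 up and 5 down), 6 rose and 0 fell in shPax6 (1.64) and 0 rose and 2 fell in JNK3 KO retinas (-0.42). The sum of 6 neutrophil markers was 212 to 235, 1947 to 1985, 5.16 to 6.09, 66.4 to 73.0, 156 to 169 and 13.1 to 13.9 in the same order of groups, with 4 of the 6 up in WT (median 3.11), 5 up in shPax6 (3.01) and 4 down in JNK3 KO retinas (-3.45), and Ly6g, a surface marker of neutrophils, was at 0 in both shPax6 groups and in JNK3 KO NMDA. Sums of 5 erythrocyte and 7 reactive glia markers moved in the same directions after NMDA. Of the erythrocyte markers 5 rose in WT, 4 in shPax6 and 0 in JNK3 KO retinas (medians 2.63, 1.81 and -0.69), and 0 fell. Of the reactive glia markers 2 rose and 1 fell in WT (-0.52). In shPax6 4 rose and 0 fell (1.09), and in JNK3 KO retinas 0 rose and 2 fell (-0.25). The part of any of these cell types in the Sprr1a values was not tested. Sprr1a is also a gene of surface epithelium, and 12 markers of cornea and conjunctiva summed to 0.68 to 4.14 FPKM in all 12 libraries. Ivl, which encodes the cornified envelope protein involucrin, was at 0 in all 6 groups, and Krt14 and Krt4, keratins of stratified epithelium, were each at 0 in both libraries of 5 of the 6 groups. Sprr1b, Sprr2d and Sprr3, its relatives of the same family, were listed at 0 in all 12 libraries.

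JUN, which JNK phosphorylates, is a subunit of the AP-1 factor that binds the letters TGANTCA. The start of Sprr1a is shown with these letters marked, and a part of AP-1 in its values was not tested. In the RefSeq sequence of GRCm38.p6, the 250 bases before the start of Sprr1a lie at chr3:92485882-92486131 on the minus strand, and capitals mark matches to TGANTCA on either strand.
Sprr1a: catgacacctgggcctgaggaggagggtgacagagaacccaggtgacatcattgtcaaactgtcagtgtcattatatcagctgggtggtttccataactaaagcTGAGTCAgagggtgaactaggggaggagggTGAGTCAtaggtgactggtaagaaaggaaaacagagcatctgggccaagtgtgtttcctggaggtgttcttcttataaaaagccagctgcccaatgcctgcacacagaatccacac
Gal: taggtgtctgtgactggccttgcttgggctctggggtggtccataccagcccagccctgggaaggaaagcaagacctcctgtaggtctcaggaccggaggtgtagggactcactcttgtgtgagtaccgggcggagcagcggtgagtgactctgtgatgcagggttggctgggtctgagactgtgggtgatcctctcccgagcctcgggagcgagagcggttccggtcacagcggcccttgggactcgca
Sprr1a held 2 matches, 146 and 116 bases before the start, both as TGAGTCA. The Gal sequence, at chr19:3414545-3414794 on the minus strand, is given for comparison as the other gene called higher in shPax6 retinas, and held no match. Windows of the same length before Ecel1 and Sox11 also held no match to TGANTCA, and Gap43 and Nrn1 are not in the table of start sequences. Of 32851 start sequences of this length, 6.75% held TGANTCA. The CRE letters TGACGTCA, bound by CREB and ATF factors, were in none of the 4 windows and in 1.55% of all, and the SOX letters ACAAAG, searched on both strands, were in the window of Ecel1 alone and in 16.5% of all. A match of letters is a description of the sequence and shows no binding.

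Gal, on the minus strand of chromosome 19 (chr19:3409915-3414544), was called higher after NMDA in shPax6 retinas, by an amount that depended on 1 low library. It was listed at 2.81 and 3.03 FPKM in WT PBS, 5.18 and 4.77 FPKM in WT NMDA, 1.62 and 0.09 FPKM in shPax6 PBS, 3.98 and 3.03 FPKM in shPax6 NMDA, 2.82 and 2.71 FPKM in JNK3 KO PBS, and 1.77 and 1.6 FPKM in JNK3 KO NMDA retinas. NMDA libraries were above PBS libraries in WT and shPax6 and below them in JNK3 KO retinas, without overlap within any genotype, as for 81.2%, 57% and 61.5% of all tested genes. The log2 difference was 2.64 in shPax6 (SE 0.78, adjusted p = 0.0315), 0.75 in WT (adjusted p = 0.441) and -0.68 in JNK3 KO retinas (adjusted p = 0.671). Without shPax6 PBS replicate 2, the library at 0.09 FPKM, the shPax6 value was 1.05, and without replicate 1 it was 4.23, both called. The call was lost without any 1 of the other 10 libraries, with values of 2.45 to 2.84. Under PBS the difference between shPax6 and WT was -2.40 (adjusted p = 0.0693), and the shPax6 and JNK3 KO responses differed by 3.33 (95% interval 0.83 to 5.83, adjusted p = 0.0697), so neither was called. Without shPax6 PBS replicate 1 these were -3.99 and 4.92, both called, and without replicate 2 the response difference was 1.74, also called. The spliced length of Gal is 788 bases, and its WT value was 0.19 on TPM and -0.11 after removal of the length trend.

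Its receptor genes were at the floor of the assay. Galr1 was at most 0.02 FPKM, Galr2 at most 0.42 FPKM and Galr3 at most 0.27 FPKM in any library, and the related peptide gene Galp was at most 0.25 FPKM.

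Ecel1, on the minus strand of chromosome 1 (chr1:87147655-87156521), was at low levels throughout. WT retinas gave 1.14 and 0.32 FPKM after PBS and 1.76 and 2.95 FPKM after NMDA. The shPax6 retinas gave 0.9 and 1.24 FPKM after PBS and 1.64 and 2.05 FPKM after NMDA, and the JNK3 KO retinas gave 0.08 and 0.33 FPKM after PBS and 0.87 and 0.94 FPKM after NMDA. In each genotype both NMDA libraries were above both PBS libraries (81.2%, 57% and 61.5% of all tested genes did not overlap in either direction), but the PBS libraries of WT and of JNK3 KO differed from each other more than 3-fold. The log2 difference was 1.72 in WT (SE 0.59, adjusted p = 0.0313, called), 0.74 in shPax6 (95% interval -0.60 to 2.08, adjusted p = 0.386) and 1.85 in JNK3 KO retinas (95% interval 0.51 to 3.20, adjusted p = 0.0857). No difference between responses was called, with intervals of -0.92 to 2.88 for WT minus shPax6, -2.03 to 1.77 for WT minus JNK3 KO and -3.01 to 0.79 for shPax6 minus JNK3 KO. The WT call was lost on TPM (1.25), with a pseudocount of 1 (0.97), and without WT PBS replicate 2 (0.94) or WT NMDA replicate 2 (1.37), and without either JNK3 KO NMDA library, where the value stayed at 1.72 and the adjusted p was 0.0504 and 0.0505.

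Ece1 and Ece2, the endothelin-converting enzymes of the same protease family, moved the other way in WT retinas, with log2 differences of -1.60 (adjusted p = 0.00601) and -1.51 (adjusted p = 5.92e-04). Ece2 also fell in shPax6 retinas, by 1.61 (adjusted p = 0.00131). The WT PBS value of Ece1 was 15.14 FPKM in replicate 1 and 37.18 FPKM in replicate 2. Mme, the gene of neprilysin, stayed under 1 FPKM in all libraries.

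Sox11, on the minus strand of chromosome 12 (chr12:27334264-27342574), stayed under 1 FPKM in every library and was not tested. Its values were 0.31 and 0.35 FPKM in WT PBS, 0.33 and 0.43 FPKM in WT NMDA, 0.36 and 0.36 FPKM in shPax6 PBS, 0.34 and 0.41 FPKM in shPax6 NMDA, 0.38 and 0.55 FPKM in JNK3 KO PBS, and 0.42 and 0.2 FPKM in JNK3 KO NMDA retinas. Ranges of NMDA and PBS libraries overlapped in all 3 genotypes, so a change of Sox11 was not detectable at these levels. Its relatives of the SOXC group were higher. Sox4 went from 3.72 and 3.15 FPKM after PBS to 0.98 and 1.63 FPKM after NMDA in WT retinas, a log2 difference of -1.37 (adjusted p = 0.00136). The value of Sox4 was 0.52 in shPax6 and 0.53 in JNK3 KO retinas, with no call, and Sox12 was at 6.59 to 10.9 FPKM in all libraries.

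Counted together, of the 5 tested genes 2 rose (Sprr1a and Ecel1) and 1 fell (Nrn1) after NMDA in WT retinas, where 35.1% of all tested genes were called, 14.2% up and 20.9% down. On TPM these shares were 5.52% up and 35.7% down, and after length correction 11.5% up and 13.1% down. In shPax6 retinas 2 rose (Sprr1a and Gal) and 1 fell (Nrn1), against 13.6% of all tested genes, 8.64% up and 4.94% down. In JNK3 KO retinas 2 fell (Gap43 and Nrn1) and 0 rose, against 2.65% of all tested genes, 0.777% up and 1.87% down. With the same size limit and an unadjusted p under 0.05 in limma, 1 more passed there, as higher (Ecel1, 1.85). By that rule 237 of 16471 tested genes were higher and 533 lower, 4.67% in either direction. Under PBS, 2 were lower in shPax6 than in WT retinas (Gap43 and Nrn1), against 4.43%, 0.522% higher and 3.9% lower, and 0 differed between JNK3 KO and WT retinas, against 0.231%. At an unadjusted p under 0.05 in limma and the same size limit, 1 of the 5 differed between JNK3 KO and WT retinas under PBS (Ecel1, -1.38), against 1.31% of all tested genes. Between responses, 1 of the 5 differed for WT against shPax6 (Nrn1, background 32%), 2 for WT against JNK3 KO (Gap43 and Sprr1a, background 35.6%) and 2 for shPax6 against JNK3 KO (Sprr1a and Nrn1, background 8.78%). The 3 differences between responses share libraries with one another, as do the comparisons with the same PBS group.

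**Figure D4:**
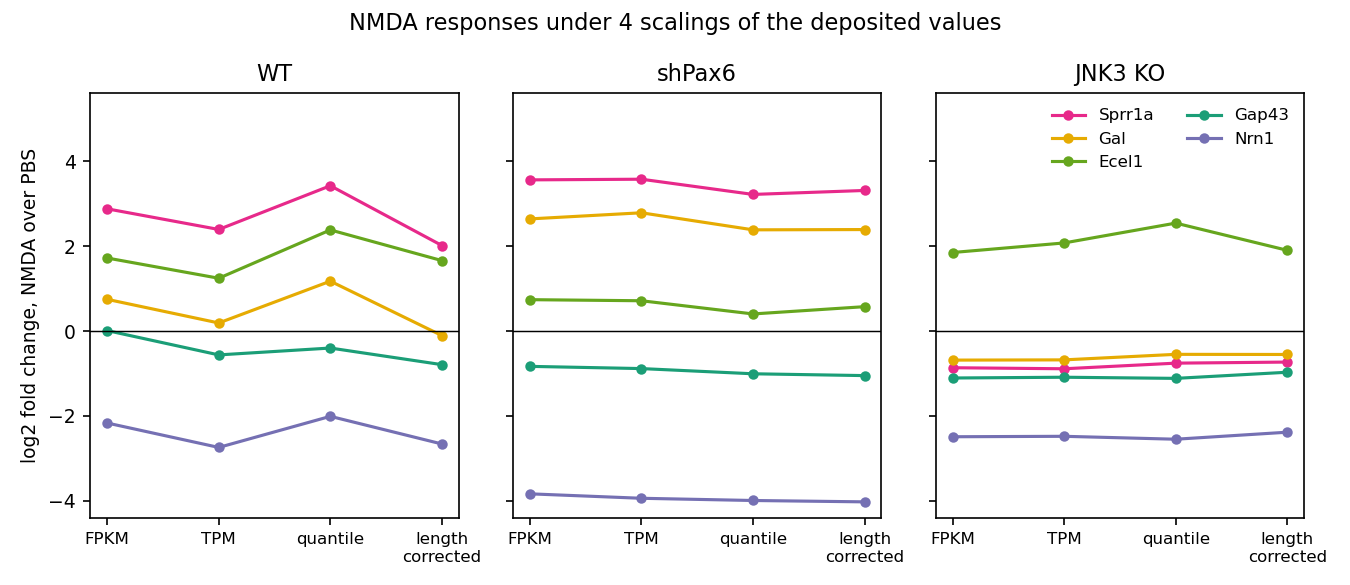
Log2 fold change of NMDA over PBS (y axis) for the 5 tested genes on deposited FPKM, on TPM, after quantile normalization and after removal of the trend on gene length (x axis), in a panel for each genotype. WT values move most, with Gap43 at 0.01, -0.56, -0.40 and -0.79, and the order of the genes in shPax6 and JNK3 KO retinas changes little.

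Transcript values showed which form of each gene carried its level. They were tested on deposited FPKM alone, without the other scalings or removal of the length trend of the WT NMDA libraries. Sox11 and Sprr1a have 1 transcript each. Gap43-201, the coding form, was at 65.89 and 63.49 FPKM in WT PBS and 60.42 and 52.68 FPKM in WT NMDA retinas (log2 difference -0.20, adjusted p = 0.118). A second form annotated as a processed transcript, Gap43-202, went from 0.68 and 0.94 FPKM to 7.24 and 11.78 FPKM in WT retinas, a rise of 3.37 (SE 1.06, adjusted p = 0.0388) in a comparison that called 29.8% of all tested transcripts. Gap43-202 was listed at 0 in all 4 shPax6 libraries and in 3 of the 4 JNK3 KO libraries, with 1.01 FPKM in JNK3 KO NMDA replicate 1. Nrn1-201 held 75.4% to 100% of the summed transcript values of Nrn1 and fell by 2.44 in WT retinas (adjusted p = 3.07e-04). Nrn1-203 was listed at 0.88 and 1.82 FPKM in WT NMDA retinas and at 0 in the other 10 libraries. Gal was split between Gal-201 and Gal-202, and Gal-202 was listed at 0 in both shPax6 PBS libraries and at 1.21 and 3.03 FPKM in shPax6 NMDA libraries. For Gal-201 the shPax6 values were 1.62 and 0.09 FPKM after PBS, then 2.76 and 0 FPKM after NMDA. Of the 5 annotated forms of Ecel1, 4 were listed above 0 in some library. Ecel1-201, a coding form, went from 0 in both PBS libraries to 1.76 and 1.44 FPKM after NMDA in WT retinas. Another coding form, Ecel1-203, moved the other way there, falling from 0.33 and 0.32 FPKM to 0 in both NMDA libraries. Ecel1-205, annotated as a retained intron, held 71.1% of the gene value in WT PBS replicate 1 and 51.2% in WT NMDA replicate 2. In WT PBS replicate 2 and WT NMDA replicate 1 it was listed at 0.

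The genes whose pattern over the 12 libraries was most like that of each gene were taken by Pearson's r of log2(FPKM + 0.1) among 13889 protein-coding genes (13890 for Sox11). The libraries share groups and, in WT NMDA, the trend on length, so r is given as a description. For Gap43 they were Snhg11 (r = 0.991), Tubb2a (0.985), a neuronal beta-tubulin, and Thy1 (0.984). For Nrn1 they were Sult4a1 (0.987), a brain sulfotransferase, Cplx2 (0.986), a complexin of the presynaptic fusion machinery, and Chst1 (0.985). For Sprr1a they were Lgmn (0.971), a lysosomal protease, Aif1 (0.968), the microglia and macrophage protein IBA1, and Zfp36 (0.961), which promotes decay of inflammatory mRNAs. Aif1 belongs to the microglia and macrophage marker list used above and had log2 differences after NMDA of 1.80 in WT (0.999 after length correction, without a call), 2.41 in shPax6 and -0.64 in JNK3 KO retinas. For Gal they were Pycard (0.951), the inflammasome adaptor ASC, Wsb2 (0.942) and Arhgap25 (0.935). For Ecel1 they were Ccdc130 (0.884), Itga6 (0.867) and Net1 (0.858), and for Sox11 Lims2 (0.816), Slc10a4l (0.790) and Spata7 (0.730). Among the 6 genes themselves, the highest r was 0.789 for Gap43 and Nrn1 and the lowest was -0.729 for Sprr1a and Nrn1.

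Other genes of the injury and regrowth programme were followed as lists. Background shares over all tested genes were 14.2% up and 20.9% down in WT and 8.64% and 4.94% in shPax6 retinas. In JNK3 KO retinas these shares were 0.777% and 1.87%. Of 15 transcription factors of injury and growth, 6 rose and 4 fell after NMDA in WT retinas (median log2 difference -0.00, against -0.09 for all tested genes), 5 rose and 0 fell in shPax6 (0.64 against 0.10), and 1 rose and 0 fell in JNK3 KO retinas (0.23 against -0.01). On TPM the WT counts were 3 up and 7 down (median -0.57) and after length correction 3 up and 2 down (0.35). Myc, a growth regulator, rose in each genotype, by 2.84 in WT (adjusted p = 2.38e-06), 2.97 in shPax6 (adjusted p = 9.41e-06) and 2.19 in JNK3 KO retinas (adjusted p = 3.05e-04). Ddit3, which encodes the stress factor CHOP, went from 51.92 and 54.64 FPKM to 210.47 and 235.61 FPKM in WT retinas. Its log2 difference was 2.06 in WT, called under all scalings, beside 0.64 in shPax6 and 0.00 in JNK3 KO retinas. Klf7, which promotes axon growth, fell in WT retinas by 2.09 (adjusted p = 2.84e-05) and was at 0.30 in shPax6 and 0.23 in JNK3 KO retinas. Creb1 fell in WT retinas by 1.37, a value that was -0.20 after length correction. Atf3 and Jun are the best known injury factors of RGCs and were named after their values had been seen. Atf3 went from 18.73 and 16.2 FPKM to 46.85 and 41.96 FPKM in WT, from 20.55 and 16.9 FPKM to 48.44 and 50.22 FPKM in shPax6, and from 27.66 and 28.09 FPKM to 32.31 and 34.82 FPKM in JNK3 KO retinas. Jun was at 19.99 to 25.35 FPKM in all libraries apart from shPax6 NMDA, where it was at 56.23 and 50.78 FPKM. Atf3 rose in WT by 1.34 (0.77 on TPM and 0.81 after length correction, without a call) and in shPax6 by 1.40, and Jun rose in shPax6 by 1.33.

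**Figure D5:**
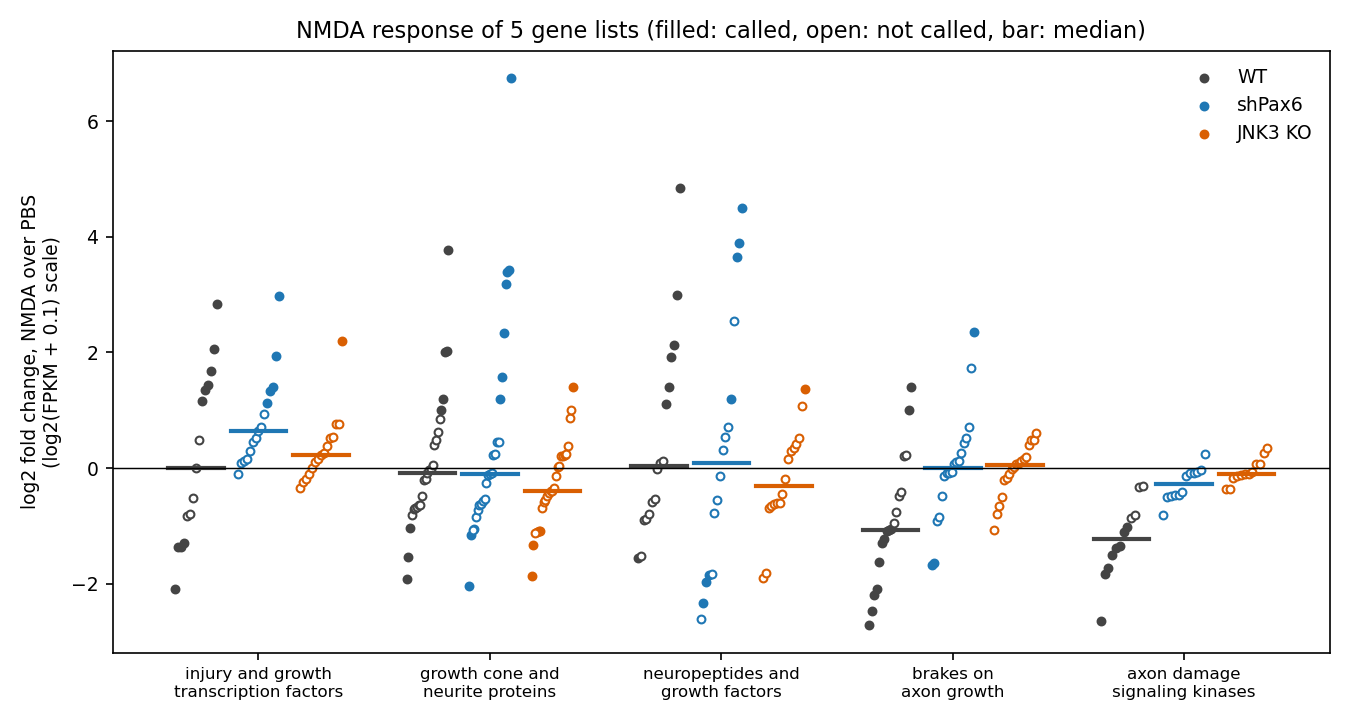
Log2 fold change of NMDA over PBS on the log2(FPKM + 0.1) scale (y axis) for the tested genes of 5 lists (x axis) in WT, shPax6 and JNK3 KO retinas, with filled points for called changes and bars at list medians. Kinases of axon damage signaling have a median of -1.23 in WT, -0.27 in shPax6 and -0.10 in JNK3 KO retinas, and the transcription factors have their highest median, 0.64, in shPax6 retinas.

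Of 25 tested growth cone and neurite proteins, 5 rose and 3 fell in WT (median -0.09), that is 8 of 25 against 35.1% of all tested genes, 7 rose and 3 fell in shPax6 (-0.11) and 1 rose and 5 fell in JNK3 KO retinas (-0.40). In shPax6 and JNK3 KO retinas the shares of all tested genes called were 13.6% and 2.65%. On TPM the WT counts of the list were 3 up and 10 down (median -0.66). Under PBS, 8 of the 25 were lower and 0 higher in shPax6 than in WT retinas (median -0.75). All tested genes gave 3.9% lower and 0.522% higher there. Plaur, the urokinase receptor, went from 0.77 and 1.14 FPKM to 14.25 and 13.87 FPKM in WT (log2 difference 3.77, adjusted p = 2.70e-05) and from 0.62 and 0.33 FPKM to 3.84 and 6.39 FPKM in shPax6 retinas (3.18, adjusted p = 3.21e-04). Its value in JNK3 KO retinas was 1.01 (adjusted p = 0.141). Tubb6, a beta-tubulin raised in regrowing axons, rose by 2.02 in WT and 3.40 in shPax6 retinas, and its JNK3 KO value of 0.86 was under the size limit. L1cam, a cell adhesion molecule of growing axons, fell in WT by 1.93 and in JNK3 KO retinas by 1.09 and was at -0.62 in shPax6 retinas. Flrt3, a guidance receptor, fell in WT retinas by 1.55.

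Among 16 tested neuropeptides and secreted growth factors, 6 rose and 1 fell in WT (median 0.03), 4 rose and 3 fell in shPax6 (0.09) and 1 rose and 0 fell in JNK3 KO retinas (-0.32). Over all tested genes the called shares were 14.2% up and 20.9% down in WT and 8.64% and 4.94% in shPax6 retinas. They were 0.777% and 1.87% in JNK3 KO retinas. On TPM the WT counts of the list were 2 up and 6 down (median -0.53). Ccl2, a chemokine that attracts monocytes, went from 4.61 and 4.39 FPKM to 138.26 and 126.01 FPKM in WT and from 0.91 and 2.2 FPKM to 31.4 and 37.63 FPKM in shPax6 retinas. In JNK3 KO retinas Ccl2 was at 5.23 and 5.38 FPKM after PBS and at 7.03 and 8.41 FPKM after NMDA. Il6 rose in WT retinas by 3.00 (adjusted p = 0.0303), without a call on TPM (2.60) or after length correction (2.58), and its levels stayed at or below 3.09 FPKM. Bdnf, a survival factor of RGCs, fell in WT retinas by 1.55 (adjusted p = 0.00410) and by 1.06 after length correction. Adcyap1, the gene of the neuropeptide PACAP, had a WT value of -1.52 (adjusted p = 0.259).

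Of 18 tested brakes on axon growth, 2 rose and 10 fell in WT (median -1.07) and 1 rose and 2 fell in shPax6 (0.00). In JNK3 KO retinas 0 rose and 0 fell (0.05), and limma gave 6 of 18 an unadjusted p under 0.05. Called shares of all tested genes were 14.2% up and 20.9% down in WT and 8.64% and 4.94% in shPax6 retinas. Those in JNK3 KO retinas were 0.777% and 1.87%. No share at the unadjusted rule without a size limit is given for the 6 of 18. At an adjusted p under 0.05 in limma without a size limit, a stricter rule, 10.4% of all tested genes passed in JNK3 KO retinas. The WT median of this list was -0.24 and its counts 1 up and 6 down after length correction. Epha4, a receptor of repulsive ephrins, fell in WT by 2.72 (adjusted p = 9.54e-05) and was at -0.49 and 0.49 in shPax6 and JNK3 KO retinas, and Rock1, a kinase that collapses growth cones, fell in WT by 2.47 (1.09 after length correction). Socs3, an inhibitor of cytokine signaling, went from 31.92 and 31.25 FPKM to 66.83 and 60.33 FPKM in WT retinas, a log2 difference of 1.01 that was called on deposited FPKM and under no other scaling (0.43 to 0.92). Socs3 rose by 2.35 in shPax6 retinas (adjusted p = 1.80e-06). Tsc2, a brake on mTOR, rose in WT retinas by 1.40 and was at 0.83 on TPM and 0.88 after quantile normalization, without a call. Of 12 axon damage kinases and scaffolds, 8 fell and 0 rose in WT retinas (median -1.23). In shPax6 (-0.27) and JNK3 KO retinas (-0.10) 0 of the 12 were called. The shares of all tested genes called were 35.1%, 13.6% and 2.65% in WT, shPax6 and JNK3 KO retinas. In shPax6 and JNK3 KO retinas limma gave 5 and 3 of the 12 an unadjusted p under 0.05, without a size limit. The shares belong to the rule for calls and give no background for the 5 and 3. At an adjusted p under 0.05 in limma without a size limit, a stricter rule, 30.2% passed in shPax6 and 10.4% in JNK3 KO retinas. After length correction 2 of the 12 fell in WT (median -0.36). Mapk10 fell in WT by 2.65 (1.64 after length correction), and Mapk8, the gene of JNK1, fell by 1.83 (to -0.80 after length correction, without a call). The scaffold gene Mapk8ip1 and the JNK kinase gene Map2k7 had WT values of -0.33 and -0.30.

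Among relatives of the 6 genes, Nrn1l, which encodes a protein like neuritin, went from 18.11 and 18.68 FPKM to 59.25 and 56.13 FPKM in WT retinas. Nrn1l rose in WT by 1.64 (adjusted p = 6.42e-04) and was at 0.91 after length correction, without a call, while Nrn1 fell under every scaling. Its values were -0.52 in shPax6 (adjusted p = 0.190) and -0.01 in JNK3 KO retinas, and the WT response exceeded them by 2.16 (adjusted p = 0.00158) and 1.65 (adjusted p = 0.00598). Basp1, a growth cone protein related in function to Gap43, went from 70.59 and 69.19 FPKM to 53.21 and 47.32 FPKM in WT retinas, with log2 differences of -0.48, -0.58 and -0.40 in WT, shPax6 and JNK3 KO retinas, all under the size limit, and was called in WT on TPM (-1.05) and after length correction (-1.07).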

How the data were processed

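RNA from more than 3 retinas was extracted and sequenced as poly(A) RNA, and pooling for each library is not stated. Per the study's methods, the authors aligned reads with STAR 2.7.1a to GRCm38.p6, quantified genes with RSEM 1.3.3 and deposited FPKM values per gene and transcript. The deposited FPKM hold no counts, so the study's count test in edgeR 3.36.0 was not used. Here log2(FPKM + 0.1) was fitted with limma 3.58.1 (R 4.3.3) over 6 group means and 12 libraries, with an intensity trend and 6 residual degrees of freedom. The test was also run on simulated data, of which no result is given here. Genes above 1 FPKM in at least 1 group mean were tested, and p-values were adjusted over all 16471 of them in each of 8 comparisons. Positions and lengths came from GENCODE M21, which matched 99.5% of genes, and start sequences from RefSeq.

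The 6 genes and all lists were chosen with earlier results of these data known. From each list, the 2 highest and 2 lowest genes by WT response were named, any gene of the list of relatives could be named, and 3 genes were named as nearest in pattern. Ddit3 is the name of 2 genes in the table, of which 1 was tested. Replicate numbers did not pair the libraries. Alternatives covered pseudocount, filter, scaling, spread, threshold, the replicate block and each library left out.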

Additional observations from a re-analysis of the deposited data

Results flagged for a closer look

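For 3 of the genes, the response to NMDA differed between genotypes in limma's test of the difference itself, which called 32% of all tested genes for WT minus shPax6 (1 of the 5 tested here), 35.6% for WT minus JNK3 KO (2 of 5) and 8.78% for shPax6 minus JNK3 KO (2 of 5). The Gap43 response of WT exceeded that of JNK3 KO retinas by 1.12 on the log2 scale, a value that was 0.18 after length correction. The Sprr1a response exceeded that of JNK3 KO retinas by 3.75 in WT and by 4.43 in shPax6 retinas. The Nrn1 response of WT minus that of shPax6 was 1.67, and that of shPax6 minus JNK3 KO was -1.35. Summed RGC, immune, erythrocyte and reactive glia markers moved in the same comparisons, and their part in these differences was not tested.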

How the results depend on the processing

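Of 480 values of the 5 tested genes under other settings, 442 kept their direction and their side of the threshold, and of 480 with 1 library left out, 450 did. Leaving out a library outside a comparison left its log2 difference unchanged, as did settings of filter, spread and threshold. Such values could change by their p alone, so these totals overstate how far the values were tried. The cause of the exceptions was not tested. The Gap43 WT response was -0.56 on TPM, -0.069 with 75th percentile scaling, -0.40 after quantile normalization and -0.79 after length correction. The Gap43 response in shPax6 was -1.01 after quantile normalization and -1.05 after length correction, and in JNK3 KO it was -0.97 after length correction. Gap43 WT minus JNK3 KO was 0.53 on TPM, 0.72 after quantile normalization and 0.18 after length correction, which gave -0.079 for shPax6 minus JNK3 KO. Sprr1a WT minus shPax6 was 0.20 after quantile normalization. Nrn1 WT minus JNK3 KO was -0.26 on TPM and -0.28 after length correction. With a pseudocount of 1, Nrn1 gave 0.99 for WT minus shPax6 and -0.72 for shPax6 minus JNK3 KO, which lost its call at -1.35 with the spread of the compared groups alone.

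The Ecel1 WT call was lost with a pseudocount of 1 (0.97), on TPM (1.25), and at 1.72 without the filter or with the spread of the compared groups alone. Ecel1 in JNK3 KO passed after quantile normalization (2.55) and at an unadjusted p (1.85), as did its difference under PBS at an unadjusted p (-1.38), and WT minus JNK3 KO was 0.31 and 0.25 with pseudocounts of 1 and 0.5. Gal in WT was -0.11 after length correction. The Gal call in shPax6 was lost after length correction (2.39) and at 2.64 without the filter, without the intensity trend or with the spread of the compared groups alone. Gal in shPax6 against WT under PBS passed with pseudocounts of 1 (-1.21) and 0.5 (-1.61) and at an unadjusted p (-2.40). Gal shPax6 minus JNK3 KO passed likewise (1.89, 2.41 and 3.33), and WT minus JNK3 KO passed with the spread of the compared groups alone (1.43).

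With 1 library left out, the Gap43 WT response ranged from -0.023 to 0.047. Ecel1 ranged from 0.94 to 2.50 in WT, from -0.10 to 1.46 in shPax6 against WT under PBS and from -0.91 to 0.65 in WT minus JNK3 KO. Gal ranged from 1.05 to 4.23 in shPax6, from -3.99 to -0.81 in shPax6 against WT under PBS, from -3.48 to -0.31 in WT minus shPax6, from 1.36 to 1.501 in WT minus JNK3 KO and from 1.74 to 4.92 in shPax6 minus JNK3 KO. Nrn1 shPax6 minus JNK3 KO ranged from -1.72 to -0.97.

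The count of all genes called in shPax6 was 2236, and 657 with the spread of the compared groups alone. In JNK3 KO it was 436, with 770 at an unadjusted p and 213 to 537 with 1 library left out. In shPax6 against WT under PBS it was 729, with 478 at a pseudocount of 1, 341 with the spread of the compared groups alone, 1118 at an unadjusted p and 423 to 1034 with 1 library left out. In JNK3 KO against WT under PBS it was 38, with 12, 216 and 18 to 58 for the last 3 of these.

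Replicate numbers did not pair the libraries, since differences between same-numbered libraries correlated at -0.10 to 0.09 across genes over 15 pairs of groups. With the replicate block 5760 genes were called in WT, 2195 in shPax6 and 408 in JNK3 KO retinas, and no call of the 5 tested genes changed.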
